A study of Mus musculus with 10 samples.

Results

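The genes described here are 10 members of the Hippo pathway and its effectors YAP and TAZ in mouse keratinocytes: Yap1, Wwtr1, Tead1, Tead3, Tead4, Amotl1, Amotl2, Lats2, Ajuba and Wwc1. Sites of the transcription factor p63 were taken from the deposited list of p63 peaks, and a peak was counted for a gene when its midpoint lay inside the annotated gene or within 50 kb of either end. By this rule 31 of the 8451 peaks in the list belonged to these genes, and no peak belonged to more than 1 of them. The genes are a chosen set, so the positions, widths and spacings of their peaks below are descriptions without a test.

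The series profiled chromatin of 2 similar mouse keratinocyte lines, MK1 and MK2, by ChIP-seq (chromatin immunoprecipitation followed by sequencing). The p63 group had 2 libraries, 1 from MK1 and 1 from MK2, both precipitated with the p63 antibody 4A4, with no treatment, genotype or time named for either line. Histone mark and input libraries of the same lines were not analysed here. The authors merged both p63 libraries into 1 list with the irreproducible discovery rate (IDR), a filter for peaks with a similar rank in each replicate. The list gives chromosome, start and end of each peak but no height or count, so the read depth is unknown, MK1 and MK2 cannot be compared and no spread between them can be given. As a label check, the basal keratinocyte markers Krt5, Krt14, Trp63 and Itgb4 had 4, 2, 4 and 5 peaks by the same rule. Of these, 0, 0, 4 and 1 lay inside the gene. Among protein-coding genes, 40.7% reached 1 peak or more, 19.7% reached 2 or more and 2.14% reached 5 or more. These shares are not matched on gene length, and the 2 peaks at Krt14 make a weak check. A peak list also says nothing of expression.

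p63 is a p53-family transcription factor of the basal layer of the epidermis and other stratified epithelia. The Hippo pathway is a kinase cascade that limits growth: LATS kinases phosphorylate the coactivators YAP (gene Yap1) and TAZ (gene Wwtr1) and keep them out of the nucleus, and unphosphorylated YAP and TAZ bind TEAD factors on DNA. Motins (angiomotin-like proteins) hold YAP at cell junctions, Ajuba restrains LATS kinases, and KIBRA (gene Wwc1) acts upstream of them. In the epidermis YAP is known for driving the proliferation of basal cells.

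Of the 10 genes, 8 had at least 1 p63 peak (80%, 95% Wilson interval 49 to 94.3, counting error only). The same rule gave a peak to 40.7% of the 21779 protein-coding genes. That share is not matched on gene length: among genes about as long as Amotl1 it was 51.8%. The members themselves are 10.2 to 227.4 kb long, and no share matched to all of their lengths was made. Whether they differ from other genes was not tested. The members were also chosen with earlier results of these data known. They are not a random draw of genes, so the interval cannot be read as a comparison with 40.7%. The median was 2 peaks per member and 0 over all protein-coding genes. The peaks were spread unevenly: Amotl1 had 10, Amotl2 6, Tead1 5, Tead4 3, Yap1, Tead3 and Ajuba 2 each, Wwtr1 1, and Lats2 and Wwc1 none. The 2 motin genes among the members thus held 16 of the 31 peaks. The related gene Amot, which is in the wider list described below, had 1 peak, and it was outside the gene. A peak lay inside the gene itself for 5 members, namely Wwtr1, Tead1, Tead3, Amotl1 and Ajuba, against 13.4% of all protein-coding genes. This share too is not matched on gene length, and a longer gene has more room for a peak inside it. In all 13 peaks were inside a member and 18 outside. The windows of the 10 genes covered 1.86 Mb and held 16.7 peaks per Mb, and 12.8 without Amotl1. The whole list had 3.18 per Mb of annotated chromosome, which includes long stretches without genes.

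**Figure D1:**
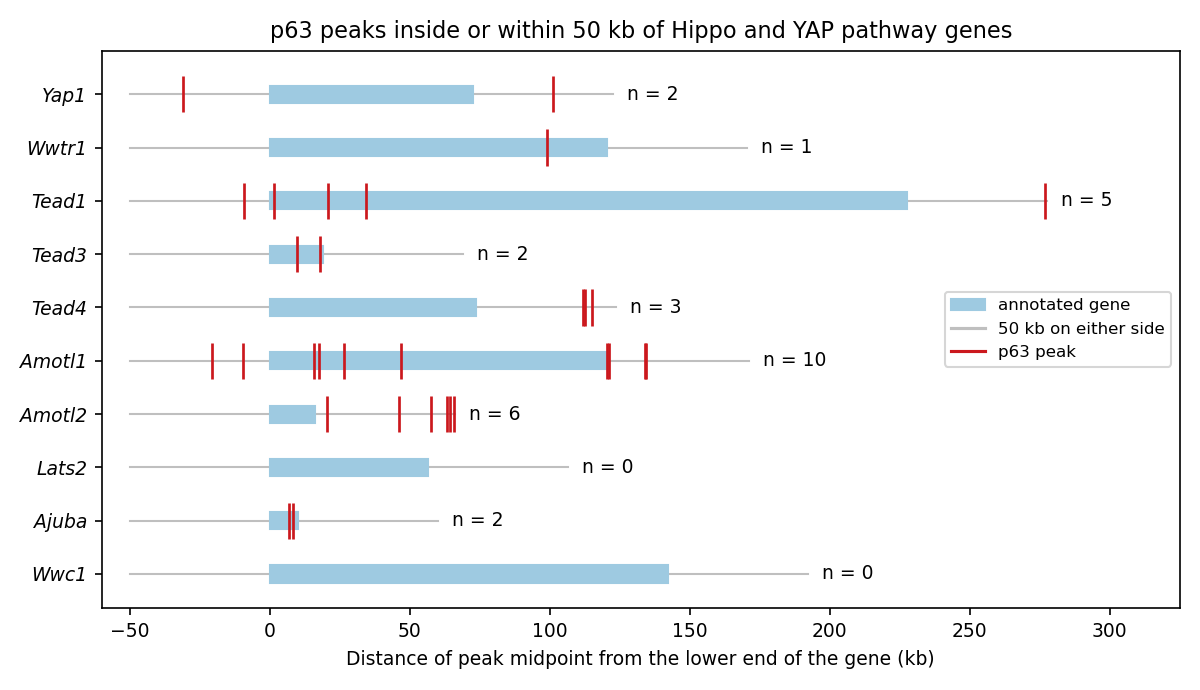
Map of the p63 peaks at the 10 genes. The x axis is the distance of a peak's midpoint from the lower end of the gene in kb, blue bars are the annotated genes, grey lines the 50 kb on either side and red ticks the peaks. Amotl1 has 10 peaks along and around it, the 6 peaks of Amotl2 all lie above it, and Lats2 and Wwc1 have 0.

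**Figure D2:**
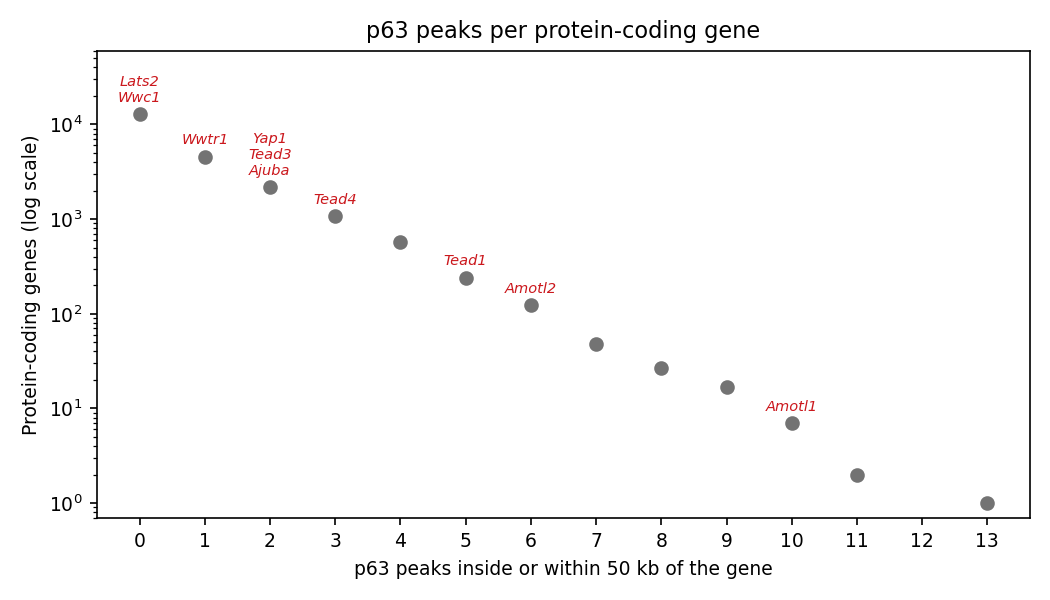
Number of protein-coding genes (y axis, log scale) with each number of p63 peaks inside or within 50 kb (x axis). Each point is 1 number of peaks, and red names mark the 10 genes. Amotl1 is at 10 peaks, a count that it shares with 6 other genes and that 3 genes exceed.

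Start sites and the DNA before them were compared first, because the start of a gene is where its promoter lies. RefSeq windows of 300 bases, from 250 bases before a start to 50 after it, were at hand for 8 members, with 12 windows in all; Tead1 and Tead4 had no entry. No member window was touched by a p63 peak, and 1.14% of the 21263 windows of protein-coding genes were. Among the 8 members with a start in the table, the peaks nearest to one were at Tead3 and Ajuba. Tead1, whose start was not used here, had a peak 1.669 kb from its lower end. At Tead3 a peak of 316 bp had its midpoint 0.634 kb downstream of the innermost of 3 RefSeq starts, and its edge was 476 bp from that start. At Ajuba a peak of 485 bp had its midpoint 1.803 kb downstream of the start. At Wwtr1, Amotl1, Amotl2 and Yap1 the midpoint nearest to a start was 21.279, 26.072, 19.71 and 28.466 kb away. For Amotl1 this holds for the only RefSeq start in the table, which lies inside the annotated gene. The annotated upper end, the 5′ end of this minus-strand gene, is 48 kb upstream of that start. Midpoints of 2 peaks lay 0.058 and 0.622 kb from that end, and no window covered it.

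The 250 bases before the start are shown for Tead3 and Ajuba, whose peaks were the nearest to a RefSeq start among these 8. The same bases are shown for Axl, a gene of the wider pathway whose window a peak did reach. They are RefSeq sequences of GRCm38.p6, which has the chromosome coordinates of mm10, and run 5′ to 3′ on the minus strand, the strand of all 3 genes. In Ajuba (chr14:54577662-54577911) and Tead3 (chr17:28350806-28351055, before the outermost start) capitals mark GGAATG or its reverse complement CATTCC, the core letters of the site that TEAD factors recognise. In Axl (chr7:25788734-25788983), which encodes a receptor tyrosine kinase known as a YAP target, capitals mark the 29 bases covered by the p63 peak.
Ajuba: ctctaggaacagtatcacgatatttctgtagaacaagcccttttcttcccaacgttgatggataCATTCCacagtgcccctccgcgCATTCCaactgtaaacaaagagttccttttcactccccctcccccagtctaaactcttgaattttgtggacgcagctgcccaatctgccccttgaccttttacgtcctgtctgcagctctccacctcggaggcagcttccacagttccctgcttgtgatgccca
Tead3: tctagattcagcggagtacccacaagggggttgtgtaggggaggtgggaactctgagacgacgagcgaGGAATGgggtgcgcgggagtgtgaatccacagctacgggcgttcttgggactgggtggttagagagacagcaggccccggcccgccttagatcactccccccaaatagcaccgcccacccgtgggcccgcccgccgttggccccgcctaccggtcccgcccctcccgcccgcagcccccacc
Axl: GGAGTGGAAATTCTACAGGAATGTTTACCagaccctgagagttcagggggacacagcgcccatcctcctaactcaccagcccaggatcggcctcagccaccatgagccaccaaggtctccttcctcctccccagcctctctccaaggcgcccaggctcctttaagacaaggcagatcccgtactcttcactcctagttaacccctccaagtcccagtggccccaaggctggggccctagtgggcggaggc

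The Axl peak spanned 25788955 to 25789397 on chromosome 7, 443 bp, with its midpoint 0.443 kb upstream of the start at 25788733. The letters GGAATG also occur within the bases of Axl under the peak, at positions -233 to -228 counted from the start (the start base is 1 and there is no 0). In Ajuba the letters stood at -186 to -181 and -164 to -159. The bases shown for Tead3 precede its outermost start, which was 935 bp from the edge of the peak. In the window of its middle start, at 28350600, the letters also stood at -123 to -118, -114 to -109 and 3 to 8, which are not shown.

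The TEAD letters were searched on both strands in every window, a search that was added after the sequences had been seen. They were present in 6 of the 8 members with a window (75%), in 13 of 27 genes of a wider Hippo list (48.1%) and in 15.5% of the 17492 protein-coding genes with a window. Counted by window, they were in 8 of 12 member windows, against 13.6% of all windows, but windows of Tead3 and of Wwtr1 overlap, and a gene with more windows has more bases searched. The other 4 members that held them are shown with 12 bases on either side of the match, which is in capitals. Yap1 is at chr9:8004720-8004749 (minus strand), Wwtr1 at chr3:57576029-57576058 (minus), Amotl2 at chr9:102717727-102717756 (plus) and Lats2 at chr14:57746102-57746131 (minus).
Yap1: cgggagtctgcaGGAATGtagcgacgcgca
Wwtr1: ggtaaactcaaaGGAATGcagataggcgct
Amotl2: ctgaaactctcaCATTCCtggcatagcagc
Lats2: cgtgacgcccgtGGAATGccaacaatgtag

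Amotl1 and Wwc1 had no match in their windows. Lats2 had the letters but no p63 peak, and Amotl1 had the most peaks but no match in its window. A loose form of the p53-family site, namely the letters CNNG followed by any 6 bases and CNNG again, which reads the same on both strands, was in the windows of 7 of the 8 members and in 76.8% of protein-coding genes with a window. These matches are letters in a window and do not show that a factor sat there. The sequence under the members' own peaks was not used here.

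Amotl1, which encodes angiomotin-like 1, a junction protein that binds YAP, lies on the minus strand of chromosome 9 at 14541966 to 14662974 (121 kb), so its transcripts run from the upper end to the lower. Its 10 peaks spread over 155.3 kb and fell into 2 sets with 73.4 kb between them. The lower set had 6 peaks over 67.8 kb. Of these, 2 lay beyond the lower end of the gene, at 14521355 to 14521658 (304 bp) and 14532250 to 14532612 (363 bp), with midpoints 20.46 and 9.535 kb from it. The other 4 lay inside the gene, at 14557627 to 14557855 (229 bp), 14559338 to 14559825 (488 bp), 14568385 to 14568813 (429 bp) and 14588711 to 14589146 (436 bp). These 4 were all downstream of the RefSeq start at 14615000, by 57.259, 55.418, 46.401 and 26.072 kb.

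The upper set had 4 peaks over 14.6 kb in 2 close pairs. The first pair sat at the upper end of the annotated gene, 48 kb upstream of the RefSeq start used above, since the annotated gene reaches beyond that start. Its peaks spanned 14662118 to 14662586 (469 bp) and 14662819 to 14663244 (426 bp), with 232 bp between their edges. The second of them covered the upper end itself and the lower end of the long noncoding RNA gene Gm7607, 48 bp away. The other pair lay 12.89 and 13.452 kb beyond the gene, at 14675620 to 14676107 (488 bp) and 14676178 to 14676673 (496 bp), with 70 bp between their edges. Only 13 of the 8430 pairs of neighbouring peaks in the list were as close as this or closer. The list does not say whether such a pair is 1 broad site or 2 sites.

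**Figure D3:**
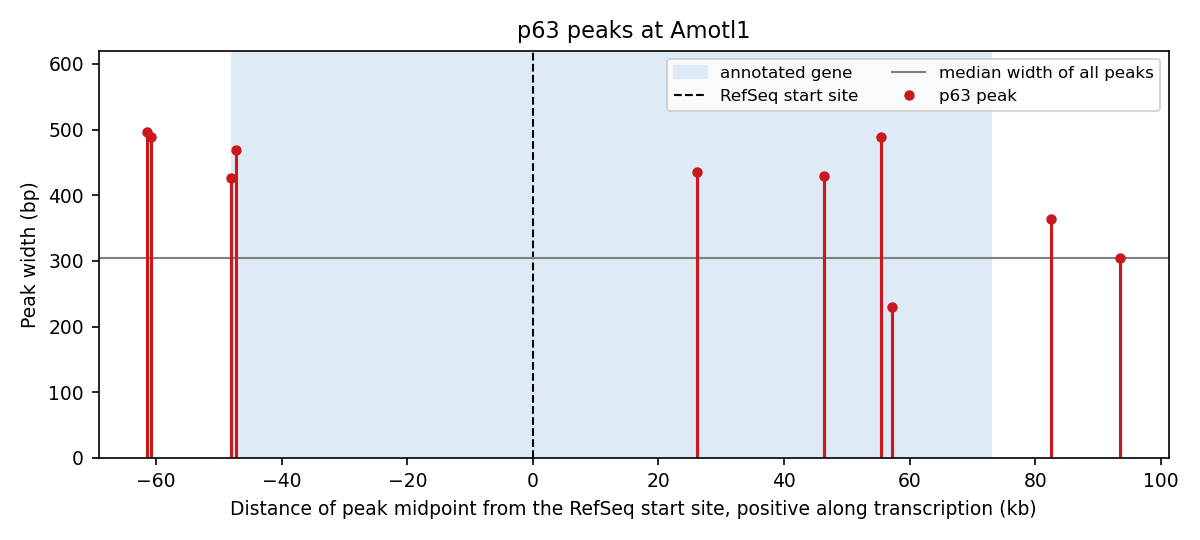
The 10 p63 peaks at Amotl1. The x axis is the distance of a midpoint from the RefSeq start in kb, positive along transcription, the y axis is peak width in bp, the shaded area is the annotated gene, and the horizontal line is the median width of all peaks, 305 bp. The stretch of 73.4 kb around the start holds no peak, and 8 of the 10 peaks are wider than the median of all peaks.

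Amotl1 was the protein-coding gene nearest to 9 of its 10 peaks, and Cwc15 was nearer to the lowest. All 10 were within 25 kb of the gene, and the next peak on either side was 128.31 kb beyond the upper end and 872.978 kb beyond the lower. Only 10 protein-coding genes, or 0.0459%, had 10 or more peaks, and Amotl1 was among the 7 with exactly that number. Amotl1 was singled out for its many peaks, so its rank here and among genes of similar length is a description and not a result. Gene length was compared, since a longer gene has a wider window: of 995 other genes whose length was within 20% of that of Amotl1, 51.8% had a peak, their median was 1, and 1 had as many as Amotl1. That gene was Cfap43 with 13, of which 2 were inside it. The next were Zmynd8 with 9 (7 inside) and Bcar3 with 9 (5 inside). Counting peaks inside the gene alone, where Amotl1 had 5, 15 of the 995 had as many or more.

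Amotl2, which encodes the related motin angiomotin-like 2, is a short gene of 16.3 kb on the plus strand of chromosome 9 at 102717091 to 102733418. None of its 6 peaks was inside the gene or before it. All lay beyond its 3′ end, in the DNA between Amotl2 and Ryk, and Amotl2 was the nearest protein-coding gene of each. The first, at 102737241 to 102737786, was the widest with 546 bp and was 4.096 kb from the gene. The others were 29.834, 41.15, 47.022, 48.074 and 49.536 kb away, with widths of 300, 456, 261, 303 and 254 bp. The spacing was 25.738 kb between the first 2 and 1.052 and 1.462 kb among the last 3. Ryk begins at 102834920, so these last 3 lay near the middle of the DNA between the genes, only slightly nearer to Amotl2. The 6 peaks made Amotl2 the member with the most peaks per Mb of window, 51.6, against 45.2 at Amotl1. In all 225 protein-coding genes, or 1.03%, had 6 or more peaks. The next peak past the window was 639.776 kb away, so the group ended there, but with a window of 25 kb only 1 of the 6 would have been counted.

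The 2 motin genes among the members therefore differed in layout. Amotl1 had peaks inside it and beyond both ends, and Amotl2 had them beyond 1 end alone.

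Among the TEAD genes, whose proteins bring YAP and TAZ to DNA, Tead1 had 5 peaks. It spans 112679356 to 112906784 on chromosome 7 (227.4 kb, the longest member). Of these, 4 clustered at the lower end: one of 578 bp, the widest of all 31, lay 9.052 kb below the gene at 112670015 to 112670592 and inside the long noncoding RNA gene Gm40451, and 3 lay inside Tead1 at 1.669, 20.924 and 34.498 kb from the lower end. The 3 inside measured 179, 380 and 174 bp, and the last of these was the narrowest of the 31. The remaining 242.32 kb up to the fifth peak held none. The fifth was inside Rassf10, 49.389 kb above Tead1, and so was only just inside the window. At least 5 peaks were found at 2.14% of protein-coding genes.

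Tead3, at 28331671 to 28350805 on the minus strand of chromosome 17 (19.1 kb), had 2 peaks, both inside it. The one near the starts spanned 28349555 to 28349870, as described above. The other, at 28341045 to 28341400 (356 bp), lay 8.49 kb further along the gene and about equally far from both ends, 9.552 and 9.582 kb. Tead4, at 128227143 to 128300813 on chromosome 6 (73.7 kb), had 3 peaks, and none was inside it. They lay 38.358, 38.984 and 41.472 kb above the gene within 3.4 kb of each other, all inside Tulp3, at 128338970 to 128339371 (402 bp), 128339563 to 128340031 (469 bp) and 128342185 to 128342386 (202 bp). The first 2 were 191 bp apart. Of the 3 TEAD genes, Tead1 and Tead3 thus had peaks in the gene and Tead4 had them only in the body of another gene.

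The coactivator genes had few peaks. Wwtr1, which encodes TAZ, lies at 57455644 to 57575910 on the minus strand of chromosome 3 (120.3 kb). It had 1 peak, at 57554439 to 57554755 (317 bp), inside the gene and 21.279 kb downstream of the nearest start. No other peak lay within 422.304 kb of it, so it was the most isolated of the 31. Wwtr1 and Amotl1 have nearly the same length, 120.3 and 121 kb, and had 1 and 10 peaks. Yap1, at 7931999 to 8004638 on the minus strand of chromosome 9 (72.6 kb), had 2 peaks and neither was inside it. One, at 7901016 to 7901297 (282 bp), was 30.842 kb below the gene and nearer to Birc3, an inhibitor of apoptosis. The other, at 8032926 to 8033197 (272 bp), was 28.424 kb above it and inside Cfap300. With 131.905 kb between them, these were the widest-spaced neighbours of any member apart from the last 2 at Tead1.

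Of the remaining 3 members, which act on LATS kinases or are one, Ajuba had peaks near its start and Lats2 and Wwc1 had none. Ajuba, which encodes a LIM-domain protein that restrains LATS kinases, is the shortest member, 10.2 kb at 54567469 to 54577661 on the minus strand of chromosome 14. Both of its peaks were inside the gene and wide, 570 bp at 54574136 to 54574705 and 485 bp at 54575616 to 54576100. Their midpoints were 1.438 kb apart, 3.24 and 1.803 kb downstream of the start. Lats2, which encodes a LATS kinase, had no peak in its 56.6 kb (57689662 to 57746212, chromosome 14) or within 50 kb. The nearest was 104.442 kb above it. Wwc1, which encodes KIBRA, had none in its 142.1 kb (35838399 to 35980527, chromosome 11), and the nearest was 65.5 kb above it at 36045898 to 36046155. Since the depth is unknown, a gene without a listed peak may still have sites too weak to be called. With a window of 100 kb, Wwc1 would have joined the genes with a peak and Lats2 would not.

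Close to the 50 kb limit, the peaks just inside it were the last at Amotl2 (49.536 kb) and the fifth at Tead1 (49.389 kb). The nearest left out was a peak 50.39 kb above Yap1, at 8054893 to 8055163, followed by the one at Wwc1 (65.5 kb) and one 74.625 kb below Tead3.

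Across the members, 24 of the 31 peaks had the member as their nearest protein-coding gene. The other 7 were the 2 at Yap1, the 3 at Tead4, the fifth at Tead1 and the lowest at Amotl1. Counting each peak for its nearest gene alone left 6 members with a peak, where 20.3% of protein-coding genes had one. Yap1 and Tead4 were the 2 that dropped out. Proximity does not show that a peak acts on the gene.

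The 31 peaks were 174 to 578 bp wide, with a median of 363 bp and the middle 50% between 277 and 469 bp. The whole list ran from 138 to 1494 bp, with a median of 305 bp and the middle 50% between 242 and 392 bp. Of the 31, 19 were at or above the median of the list and 14 above its upper quartile. Of those 14, 7 were at Amotl1, whose median was 432.5 bp. Without Amotl1 the median of the members was 316 bp. Width was not tested, since the peaks come from 1 list and are not replicates. It can depend on peak height, which the list does not give.

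Neighbouring peaks at a member were a median of 10.7 kb apart (23 neighbouring pairs), against 75.5 kb between neighbours over the whole list; pairs at a member can be no farther apart than its window. Another peak lay within 10 kb of 18 of the 31 peaks (58.1%), and of 29.1% of all peaks. The 31 peaks are not independent here, since both peaks of a close pair count and 16 of the 31 are at Amotl1 and Amotl2. It lay within 5 kb of 45.2% of the members' peaks and 18.7% of all, and within 25 kb of 87.1% and 47%. Without Amotl1 the share within 10 kb was 52.4%. Of the 23 pairs, 3 had at most 300 bp between their edges, 2 at Amotl1 and 1 at Tead4. In the list 115 of 8430 pairs (1.36%) were that close. These counts are not like for like, since the 23 pairs leave out neighbours beyond the window and the 8430 include them.

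**Figure D4:**
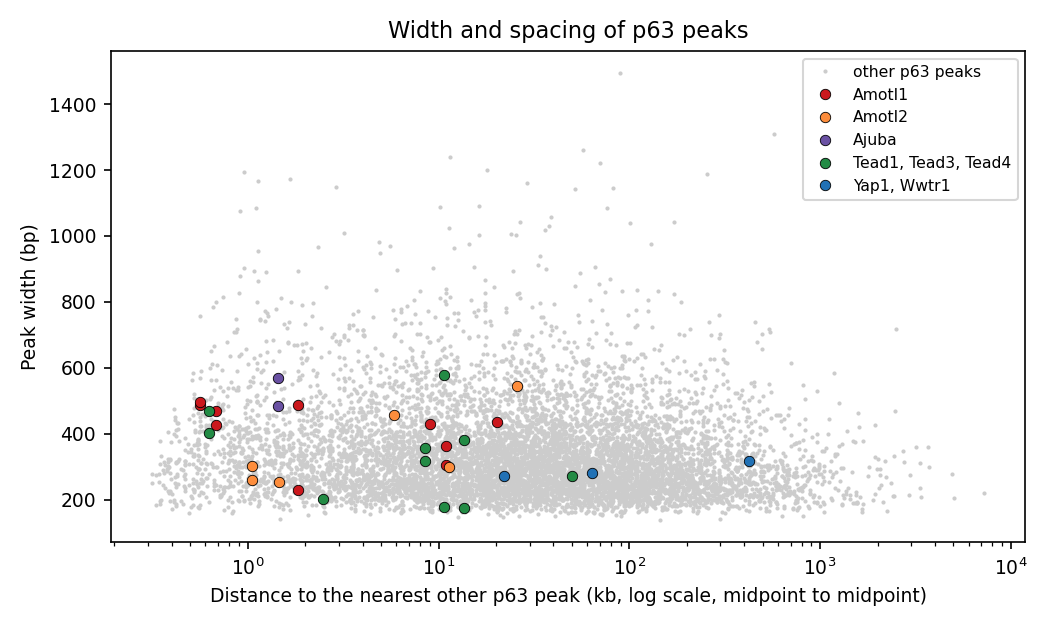
Width of each p63 peak in bp (y axis) against the distance of its midpoint to the nearest other peak in kb (x axis, log scale). Grey points are the peaks outside the 10 genes and coloured points the 31 peaks at them. The 4 points of Amotl1 at 0.562 and 0.68 kb are its 2 close pairs, and the peak of Wwtr1 stands alone at 422.304 kb.

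Other genes of the pathway were taken from a list of 32 that covers upstream kinases and scaffolds, TEAD partners, atypical cadherins and targets of YAP. Of these, 21 had a peak by the same rule (65.6%, interval 48.3 to 79.6, counting error only), beside 40.7% of all protein-coding genes. That share is not matched on gene length, and it was 51.8% among genes about as long as Amotl1. The list was also chosen with earlier results of these data known, and the difference was not tested. Its genes are not a random draw, so the interval cannot be read as a comparison with 40.7%. In the list the median was 1 peak per gene: 11 genes had none, 11 had 1 and 10 had 2 or more. Map4k4, a kinase that can activate LATS, and Vgll4, a TEAD partner that competes with YAP, had 5 each, 4 of them inside the gene. At Vgll4 the widest, 847 bp at 114988113 to 114988959 on chromosome 6, lay 18.529 kb above the gene. Fat1, an atypical cadherin, had 4, with 3 inside. Axl, Nf2 and Ptpn14 had 3 each. At Axl the nearest to the start is the one shown above, whose edge was 222 bp upstream of it. At Ptpn14, which encodes a phosphatase that binds YAP, all 3 were inside the gene, and at Nf2, which encodes the upstream regulator merlin, 1 was. The 11 without a peak were Ccn2, Crb3, Dchs2, Fat4, Mob1a, Stk4, Taok2, Tead2, Vgll1, Vgll2 and Wtip. Among known YAP targets of the list, Ccn2 had 0 peaks, Ccn1 and Ankrd1 1 each, Birc5 2 and Axl 3. The peak at Ccn1 was 760 bp wide and lay 24.984 kb above the gene.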

How the data were processed

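The deposited file holds p63 peak positions (chromosome, start and end, in build mm10). IDR on the MK1 and MK2 p63 libraries produced it, per the labels, and the submitters' processing notes name Bowtie 1.1.1 and SAMtools 1.1. The peak caller, with its thresholds, is not given in the sources used here. A broad site that the caller split counts as several peaks.

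Starts were converted from 0-based to 1-based. Genes came from a RefSeq table of GRCm38.p6: of 49943 gene rows on chromosomes, 340 with positions of scaffolds (ends under 3 Mb, Y apart) were left out, which kept 49603, of which 21779 are protein-coding. All 10 members and all 32 genes of the wider list matched by symbol. The table has no strand or exons, so exonic and intronic peaks were not told apart; strand and start sites came from the RefSeq promoter table, which holds 8 of the 10 members. Counting was done in Python 3.11.15 with pandas 2.3.3 and was tested on simulated data. The members and lists were chosen with earlier results of these data known, and no test over genes or peaks was made. All members are named. Of the wider list the 4 genes with most peaks and all genes with none were to be named. Ties were broken alphabetically, which chose Axl over Nf2 and Ptpn14 at the same count. For Amotl1 the 3 genes of similar length with most peaks were also to be named. Nf2, Ptpn14, Ccn1, Ankrd1, Birc5, Amot and the noncoding neighbours were named after their values were seen. Wilson intervals are at 95%. Alternatives were other windows, overlap by any base, narrow peaks left out, close peaks joined and nearest genes.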

Additional observations from a re-analysis of the deposited data

How the results depend on the processing

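With a window of 25 kb the members had 20 peaks and with 10 kb 17. In both, 6 members had a peak, and the share of protein-coding genes with a peak was 29.7% and 21.3%. With 100 kb, 9 members had a peak and the share was 55.2%. The share was 34.3% without peaks under the lower width quartile, 20.3% with nearest genes only and 33.2% over all annotated genes. Joining peaks within 10 kb left 20 sites at the members and 6 at Amotl1. The share of member peaks with a neighbour was 87.1% within 25 kb. The other 32 values under the alternatives stayed within 1.5 times the value reported or, for shares and medians, within its interval. The intervals of the medians were wide, 1.84 to 19.3 kb for spacing and 300 to 456 bp for width, so staying within them says little. The width interval also holds the median of the whole list, 305 bp. The share within 5 kb, 45.2%, was set against the interval of the share within 10 kb, 40.8 to 73.6%. No paired analysis was possible because the list pools MK1 and MK2 and no result comes from a test; leaving out either line was not run for the same reason. A missing peak can mean too few reads, since depth is unknown.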
